A study of Mus musculus with 2 samples.

Results

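Neurexins are presynaptic adhesion proteins that reach across the synaptic cleft to partners on the receiving cell. Neuroligins and the leucine-rich repeat transmembrane (LRRTM) proteins are 2 families of such postsynaptic partners, and they help to organise excitatory and inhibitory synapses. Here the RNAs of 7 members were followed, chosen by name from the 32285 genes of both matrices: the neurexins Nrxn2 and Nrxn3, the neuroligins Nlgn1, Nlgn2 and Nlgn3, and Lrrtm3 and Lrrtm4. All 7 were present in both tissues. The values describe RNA in nuclei, and protein and synapses were not measured.

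The study profiled mouse brain by Slide-tags, in which nuclei of a fresh-frozen section take up position barcodes from beads before droplet single-nucleus RNA sequencing. The adult sample was a coronal section through the hippocampus of a male C57BL/6J mouse aged 56 days, and the other was a sagittal section of the brain of a C57BL/6J embryo at embryonic day 14 (E14). Both sections were 20 µm thick, and neither animal is labelled as treated or genetically altered. The 1609 adult nuclei kept held 15346746 unique molecular identifiers (UMIs), with a median of 6607 per nucleus, and the 9036 E14 nuclei held 58923882, with a median of 4204.

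Each tissue was 1 library, so no comparison has a replicate or a test. Levels are UMIs of a gene per 1000000 UMIs summed over the nuclei of a class (CPM), with exact 95% Poisson intervals, and ratios carry exact conditional binomial intervals. These intervals cover counting error only. Nuclei were placed in classes by an excess of UMIs from lists of 8 marker genes and are called X-like, and 29.1% of adult and 65% of E14 nuclei had no class. Classes of at least 30 nuclei were given values, 10 in the adult tissue and 15 at E14. The libraries shared 1 barcode.

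The members differ in gene size, which bears on counts from nuclei, where unspliced RNA is also counted. In GENCODE annotation of build GRCm38, Nrxn3 (ENSMUSG00000066392) spans 1612 kb at chr12:88722876-90334935 and Nrxn2 spans 125.4 kb at chr19:6418731-6544169. Nlgn1 spans 906.2 kb at chr3:25426215-26332460. Nlgn2, at chr11:69823122-69837784, and Nlgn3, at chrX:101299168-101325963, are far shorter, at 14.66 and 26.8 kb. Lrrtm4 spans 791.3 kb at chr6:80018877-80810143. Lrrtm3 spans 161.8 kb at chr10:63928472-64090277 and lies inside Ctnna3, an α-catenin gene on the opposite strand.

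The RefSeq promoters of 3 members start within 22 bases of the annotated gene start, and their upstream 250 bases (GRCm38.p6, gene strand, 5′ to 3′) are shown because these genes span the range from an even to a class-restricted level. Capitals mark CG, which reads the same on both strands. The Nlgn2 sequence is at chr11:69837785-69838034 (minus strand), Lrrtm3 at chr10:64090256-64090505 (minus strand) and Lrrtm4 at chr6:80018627-80018876 (plus strand).
Nlgn2: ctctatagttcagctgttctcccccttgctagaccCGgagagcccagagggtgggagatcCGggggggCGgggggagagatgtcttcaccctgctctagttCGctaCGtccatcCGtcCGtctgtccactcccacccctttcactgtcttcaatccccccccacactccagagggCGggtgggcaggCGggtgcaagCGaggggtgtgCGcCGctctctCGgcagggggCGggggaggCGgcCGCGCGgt
Lrrtm3: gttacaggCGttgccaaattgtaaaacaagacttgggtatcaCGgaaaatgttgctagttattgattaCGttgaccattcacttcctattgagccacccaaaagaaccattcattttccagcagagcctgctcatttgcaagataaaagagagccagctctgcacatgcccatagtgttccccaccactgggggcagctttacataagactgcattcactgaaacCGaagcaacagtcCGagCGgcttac
Lrrtm4: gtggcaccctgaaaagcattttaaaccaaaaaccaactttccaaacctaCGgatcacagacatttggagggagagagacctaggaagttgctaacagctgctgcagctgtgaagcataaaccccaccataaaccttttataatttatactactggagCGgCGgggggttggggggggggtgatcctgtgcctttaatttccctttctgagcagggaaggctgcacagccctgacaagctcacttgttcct
The Nlgn2 sequence holds 18 CG, a count reached by 21.7% of the 32851 promoters of the table over the same length. Lrrtm3 holds 6 (reached by 50.4%) and Lrrtm4 holds 3 (71%). Lrrtm4 has a further RefSeq start 766 bases into the gene, whose upstream window holds 8 CG. The letters describe these windows only.

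Among the neurexins of the adult tissue, Nrxn3 was the member most weighted to neurons. Its level was 3985 CPM over 594 neuron-like nuclei and 669.8 over 480 glia-like nuclei, a ratio of 5.95 (5.66 to 6.26). CA3 and CA1 pyramidal-like nuclei held 6361 and 6335 CPM, which do not differ beyond their intervals. Inhibitory-like nuclei held 5224 and thalamic-like nuclei 3652, while dentate granule-like nuclei held 1260 (1224 to 1296), the lowest of these neuron classes and 5.03 times below CA1. In single nuclei the lowest, median and highest CPM were 0, 6094 and 14467 in CA1 pyramidal-like nuclei and 0, 637 and 11819 in dentate granule-like nuclei. The quartile ranges of these classes did not overlap, but their full ranges did. The inhibitory-like level rests on few nuclei: the median nucleus was at 1883 CPM, below the thalamic-like median of 3205, and 5 of 47 nuclei held 57.5% of the class's Nrxn3 UMIs.

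Nrxn2 had another order. Oligodendrocyte precursor-like nuclei were highest at 525 CPM (33 nuclei), followed by astrocyte-like nuclei at 236.1, and both stood apart from every neuron class. However, 48.94% of astrocyte-like nuclei also held an excess of neuron markers, and 50% of thalamic-like nuclei one of non-neuron markers. With these left out, the astrocyte-like and thalamic-like levels overlapped, at 241.7 and 180.8 CPM. The neuron classes ran from 80.75 CPM in CA1 pyramidal-like to 176.6 in thalamic-like nuclei. Neurons together held 109.1 CPM against 196.1 in glia, a ratio of 0.56 (0.50 to 0.62). Not all glia were higher: oligodendrocyte-like nuclei held 100 CPM and microglia-like nuclei 90.79, both within the range of the neuron classes. In single oligodendrocyte precursor-like nuclei the lowest, median and highest Nrxn2 values were 0, 616 and 1731 CPM, and 3.03% of these nuclei had no Nrxn2 UMI. Before thinning, 23.3% of endothelial-like and 22.2% of microglia-like nuclei also had a Nrxn2 UMI. Thinned to 1000 UMIs, the shares were 33.3% of oligodendrocyte precursor-like, 28.2% of astrocyte-like, 3.57% of endothelial-like and 6.82% of microglia-like nuclei.

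Of the neuroligins, Nlgn1, which acts at excitatory synapses, had the widest span between adult classes. It was highest in CA3 pyramidal-like nuclei at 4377 CPM, then in oligodendrocyte precursor-like nuclei at 3514 and CA1 pyramidal-like nuclei at 3039, each apart from the next. All 37 CA3 pyramidal-like nuclei had Nlgn1, with a lowest value of 152.8, a median of 4014 and a highest of 10669 CPM. Astrocyte-like nuclei, at 1748 CPM, overlapped thalamic-like nuclei at 1713. Endothelial-like nuclei were lowest at 398.1, 10.99 times below CA3.

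Nlgn2, the neuroligin of inhibitory synapses, and Nlgn3, found at both kinds, were close to even between pooled neurons and pooled glia. Nlgn2 had 49.04 CPM in neurons and 41.97 in glia, a ratio of 1.17 (0.94 to 1.47), and Nlgn3 had 56.62 and 56.1, a ratio of 1.01 (0.83 to 1.23), or 0.70 with classes weighted equally. Between classes they were less even, differing from the highest to the lowest by 4.63 times for Nlgn2 and 8.15 times for Nlgn3. Both were highest in oligodendrocyte precursor-like nuclei, at 93.38 CPM for Nlgn2 and 140.1 for Nlgn3. The Nlgn2 value did not clear the interval of the next class, and the Nlgn3 value did. Nlgn2 in inhibitory-like nuclei, at 54.66 CPM, was not distinguishable from CA1 (50.79) or CA3 (56.28) pyramidal-like nuclei. The shallow counts limit both genes: 56.17% of dentate granule-like nuclei had no Nlgn2 UMI.

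**Figure D1:**
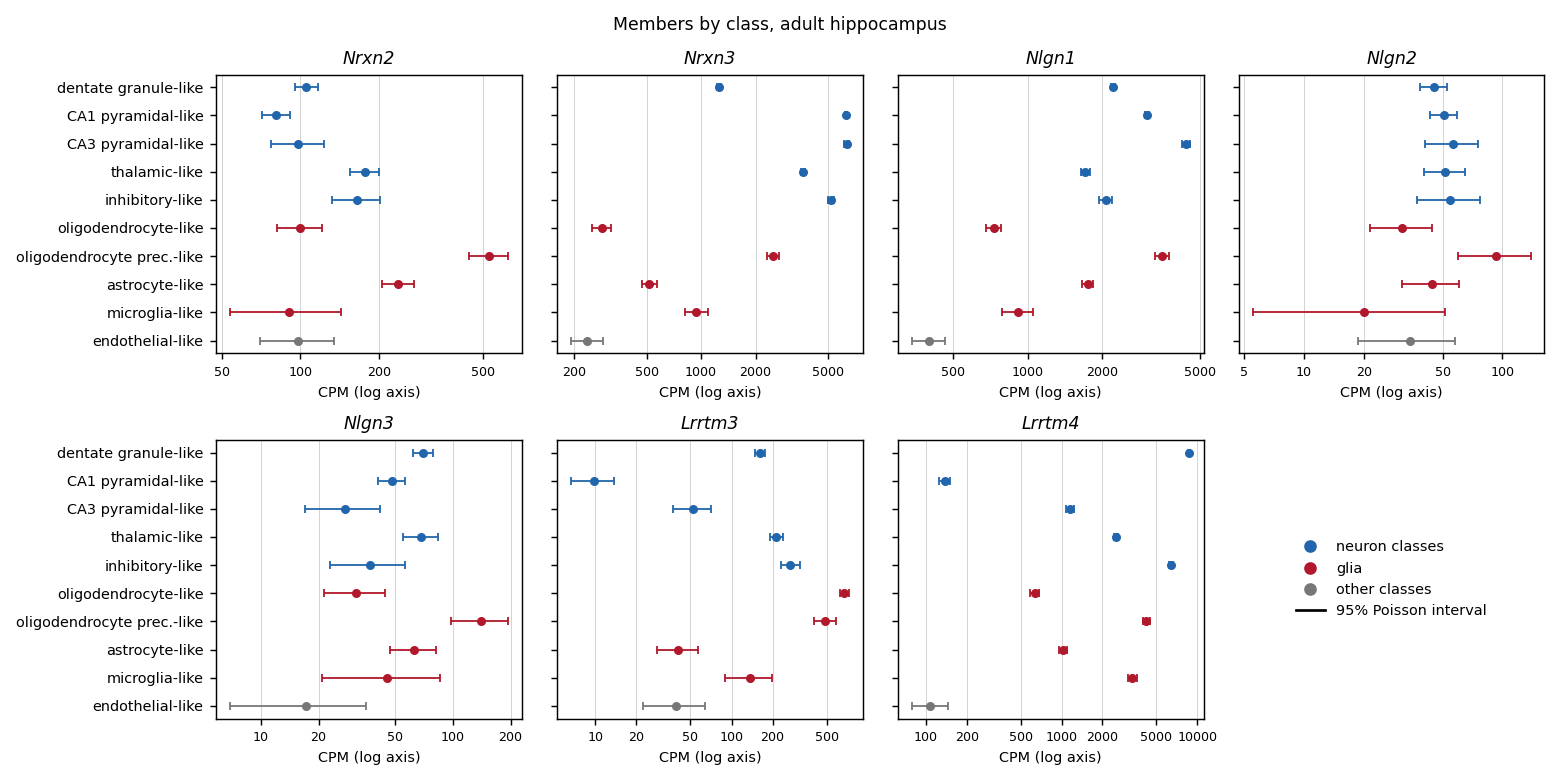
Level of each of the 7 members in the 10 adult classes of at least 30 nuclei, in CPM on a log axis that differs between panels, with neurons in blue, glia in red and endothelial-like nuclei in grey. Points are levels over summed UMIs and bars the 95% Poisson intervals; Lrrtm4 runs from 108.1 CPM in endothelial-like to 8698 in dentate granule-like nuclei, while the Nlgn2 intervals largely overlap.

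Lrrtm4, an excitatory postsynaptic protein that also binds heparan sulphate proteoglycans, separated the hippocampal principal cells. Dentate granule-like nuclei held 8698 CPM (8603 to 8794), CA3 pyramidal-like nuclei 1148 and CA1 pyramidal-like nuclei 137.2 (124.6 to 150.7). The dentate level was 63.4 times that of CA1 (57.7 to 69.8) and 7.58 times that of CA3. The CA3 ratio was 13.98 with classes from clusters, and 4 of 37 CA3 pyramidal-like nuclei held 60.5% of that class's Lrrtm4 UMIs. Both promoter windows named above belong to this 1 gene, and the counts do not tell which start was used.

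Every one of the 235 dentate granule-like nuclei had an Lrrtm4 UMI. The lowest, median and highest values were 247, 8355 and 34385 CPM. In CA1 pyramidal-like nuclei they were 0, 0 and 2689, with 75.9% of 166 nuclei at 0. The highest CA1 pyramidal-like nucleus lay below the lower quartile of the dentate ones, 6598 CPM, although the CA1 pyramidal-like nuclei were the deeper ones, with a median of 18925 UMIs against 13151. With each nucleus thinned to 1000 UMIs, 98.7% of dentate and 6.17% of CA1 pyramidal-like nuclei kept an Lrrtm4 UMI, beside 1.79% of endothelial-like nuclei, a class not known for this gene (median depth 3801, 6.67% before thinning). The thinning kept 234 of 235, 162 of 166 and 56 of 60 nuclei.

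Inhibitory-like nuclei held 6375 CPM of Lrrtm4 and oligodendrocyte precursor-like nuclei 4226, each apart from its neighbours in the order. Single precursor-like nuclei ran from 0 through a median of 2576 to 10806 CPM, and 90.9% had a UMI. Of the class's Lrrtm4 UMIs, 52.8% came from 3 nuclei, and with likely doublets left out the level was 3118 CPM. Microglia-like nuclei came next by summed UMIs, at 3329 CPM, but their median nucleus was at 0 and 4 of the 45 nuclei held 94.5% of the Lrrtm4 UMIs. Leaving out 5 microglia-like nuclei that also had an excess of neuron marker UMIs gave 296 CPM. The summed dentate granule markers stood at 2365 CPM in microglia-like and 393.2 in endothelial-like nuclei, with Dock10, which is not a neuron-only gene, giving 1019 of the first, and the part of neuronal RNA in these values was not tested.

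Lrrtm3, the other LRRTM member, was highest outside neurons among the classes of at least 30 nuclei. Oligodendrocyte-like nuclei held 671.7 CPM (622.4 to 724), oligodendrocyte precursor-like nuclei 486.4 and inhibitory-like nuclei 269.8. Cortical excitatory-like nuclei, a neuron class below that size with 27 nuclei, held 500.3 CPM, and their median nucleus was at 459.3. Oligodendrocytes make myelin, and their precursors are the cells they arise from. Astrocyte-like nuclei held 40.7 CPM, 16.5 times below oligodendrocyte-like nuclei (11.8 to 23.9), and CA1 pyramidal-like nuclei 9.78. Dentate granule-like nuclei, at 162.1 CPM, exceeded CA1 by 16.6 times (11.6 to 24.6), so both LRRTM members were higher in dentate than in CA1 pyramidal-like nuclei.

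The Lrrtm3 level of oligodendrocyte-like nuclei was spread over many nuclei. The lowest, median and highest values over 261 nuclei were 0, 432.5 and 6570 CPM, with 37.16% at 0 and a median depth of 3052 UMIs. After thinning to 1000 UMIs, 41.7% kept an Lrrtm3 UMI, against 3.57% of endothelial-like and 6.82% of microglia-like nuclei, and 247 of 261 oligodendrocyte-like nuclei were deep enough to thin. Without the 137 oligodendrocyte-like nuclei that also held an excess of neuron markers the level was 696.8 CPM. Dock10 and Pex5l, 2 markers of the neuron lists, were found in 90.8% and 91.19% of oligodendrocyte-like nuclei, and their part in that rule was not tested.

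**Figure D2:**
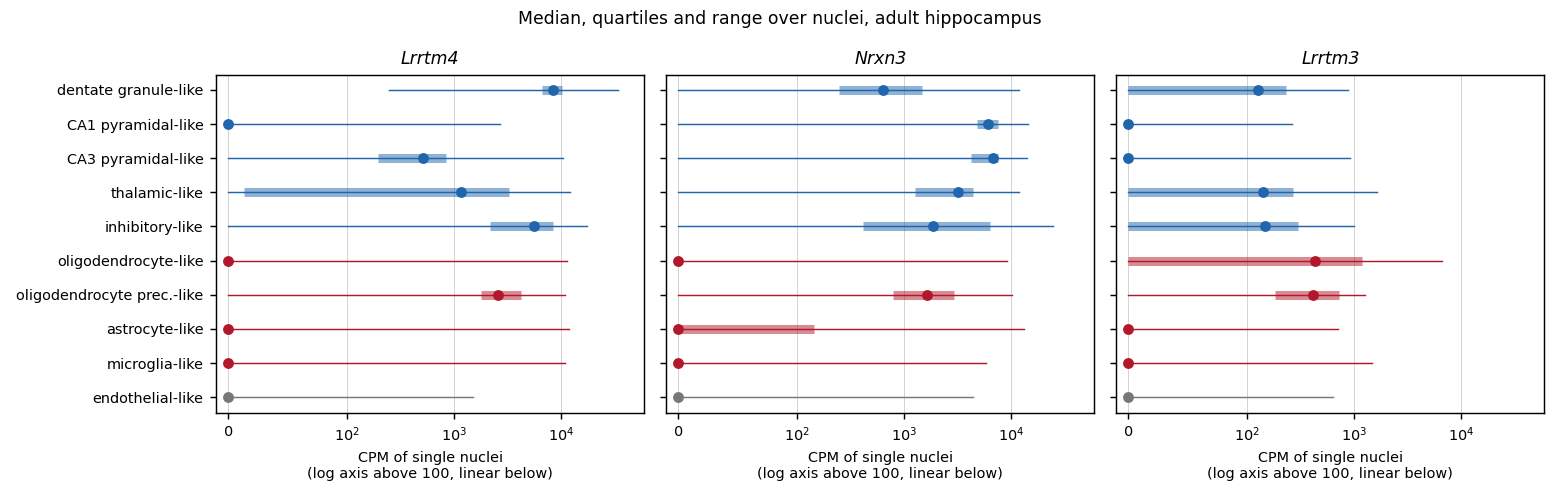
Lrrtm4, Nrxn3 and Lrrtm3 in single adult nuclei by class, in CPM on an axis that is linear below 100 and logarithmic above. Dots are medians, thick bars the quartiles and thin lines the lowest to the highest nucleus; Lrrtm4 medians are 8355 in dentate granule-like and 0 in CA1 pyramidal-like nuclei, and the microglia-like median is 0 although single nuclei reach 10824.

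Over all glia, the adult comparison came out in both directions. Beside Nrxn3, Lrrtm4 was at least 2-fold higher in neurons, with 4116 against 1404 CPM and a ratio of 2.93 (2.83 to 3.04), and Nlgn1 stayed under that mark at 1.78 (1.72 to 1.85). Lrrtm3 was at least 2-fold lower in neurons, with 133.9 against 373.5 CPM and a ratio of 0.36 (0.33 to 0.39). Thus 2 of 7 members were at least 2-fold higher and 1 at least 2-fold lower, where 14.7% and 18.6% of 13168 genes with at least 50 UMIs were. The median of the members' log2 ratios was 0.22, against −0.18 over all those genes, a shift of the whole comparison against neurons. Relative to that median, Nlgn1 reached 2.02 and no member changed side.

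The glial classes were unlike each other. Against oligodendrocyte precursor-like nuclei alone, adult neurons had less Nrxn2 (ratio 0.21), Lrrtm3 (0.28), Nlgn3 (0.40), Nlgn2 (0.53) and Nlgn1 (0.72), and the interval of Lrrtm4 held 1 (0.97, 0.92 to 1.03). Nrxn3 was higher in neurons, with a ratio of 1.59 (1.47 to 1.73). The Lrrtm4 value leans on the 3 precursor-like nuclei named above, and with nuclei weighted equally it was 1.37. Of the Lrrtm4 UMIs of adult neurons, 32241 of 41288 came from dentate granule-like nuclei. With every class weighted equally, the Lrrtm4 ratio of neurons to glia was under 2-fold, at 1.47, and that of Lrrtm3 was 0.60.

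At E14 the Nrxn3 level set the forebrain GABAergic class and the GABAergic class without Dlx apart. Forebrain GABAergic-like nuclei held 21387 CPM (21253 to 21521), so 2.14% of all their UMIs were Nrxn3. Nuclei of the GABAergic class without Dlx held 12654. That class is named for its marker list, which has no Dlx genes (forebrain transcription factors), and absence of Dlx UMIs was not required. Striatal-like nuclei held 7378, followed by Cajal-Retzius-like nuclei at 6766 and oligodendrocyte precursor-like nuclei at 6026. Without nuclei holding an excess of non-neuron markers, the striatal-like and Cajal-Retzius-like levels overlapped, at 7496 and 7184 CPM. Cortical excitatory-like nuclei held 2677 CPM, and the forebrain GABAergic to cortical excitatory ratio was 7.99 (7.79 to 8.19). It was 14.55 with nuclei weighted equally and 5.71 with classes from clusters. In 583 forebrain GABAergic-like nuclei the lowest, median and highest values were 0, 23721 and 99052 CPM, against 0, 115.1 and 23821 in 228 cortical excitatory-like nuclei. The medians were far apart and the ranges overlapped, with 0.686% and 45.6% of nuclei at 0.

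Nrxn3 was also counted in E14 classes outside the nervous lineage, at 3804 CPM in microglia-like, 3679 in endothelial-like and 3563 in fibroblast-like nuclei. Thinned to 1000 UMIs, 46.9% of microglia-like and 43.8% of endothelial-like nuclei had a Nrxn3 UMI. The share of cortical excitatory-like nuclei was 36.8%, so it did not exceed those of the microglia-like and endothelial-like classes (median depths 3713, 9140.5 and 6841.5). Before thinning these shares were 54.3%, 66.2% and 54.4%, and 137 of 142 endothelial-like nuclei and all of the other 2 classes reached the depth. The summed forebrain GABAergic markers stood at 465 CPM in microglia-like and 507 in endothelial-like nuclei, against 4030 in their own class, and the part of RNA from other cells was not tested. In the adult tissue the same thinned shares for Nrxn3 were 6.82% and 5.36%, with 92.6% in CA1 pyramidal-like nuclei.

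The other members varied less at E14. From the highest to the lowest class Nlgn1 differed by 2.80 times, Nlgn2 by 2.41, Nrxn2 by 3.65, Nlgn3 by 3.92, and Lrrtm3 and Lrrtm4 each by 5.58, against 15.6 for Nrxn3. Oligodendrocyte precursor-like nuclei led for Nlgn1 (2542 CPM), Nlgn3 (86.43) and Lrrtm3 (225.8), each within the interval of the next class. Hypothalamic-like nuclei led for Lrrtm4 at 1261 CPM, and striatal-like nuclei for Nrxn2 at 449.7 and Nlgn2 at 119.3, and these leads too lay within the interval of the next class. Lrrtm4 was lower in forebrain GABAergic-like than in cortical excitatory-like nuclei, at 517.1 against 952.6 CPM, the opposite order to Nrxn3. The forebrain GABAergic-like level overlapped that of microglia-like nuclei (502.5 CPM) and lay above those of fibroblast-like (391) and endothelial-like nuclei (357.3). Of the forebrain GABAergic-like nuclei, 61.41% were at 0.

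**Figure D3:**
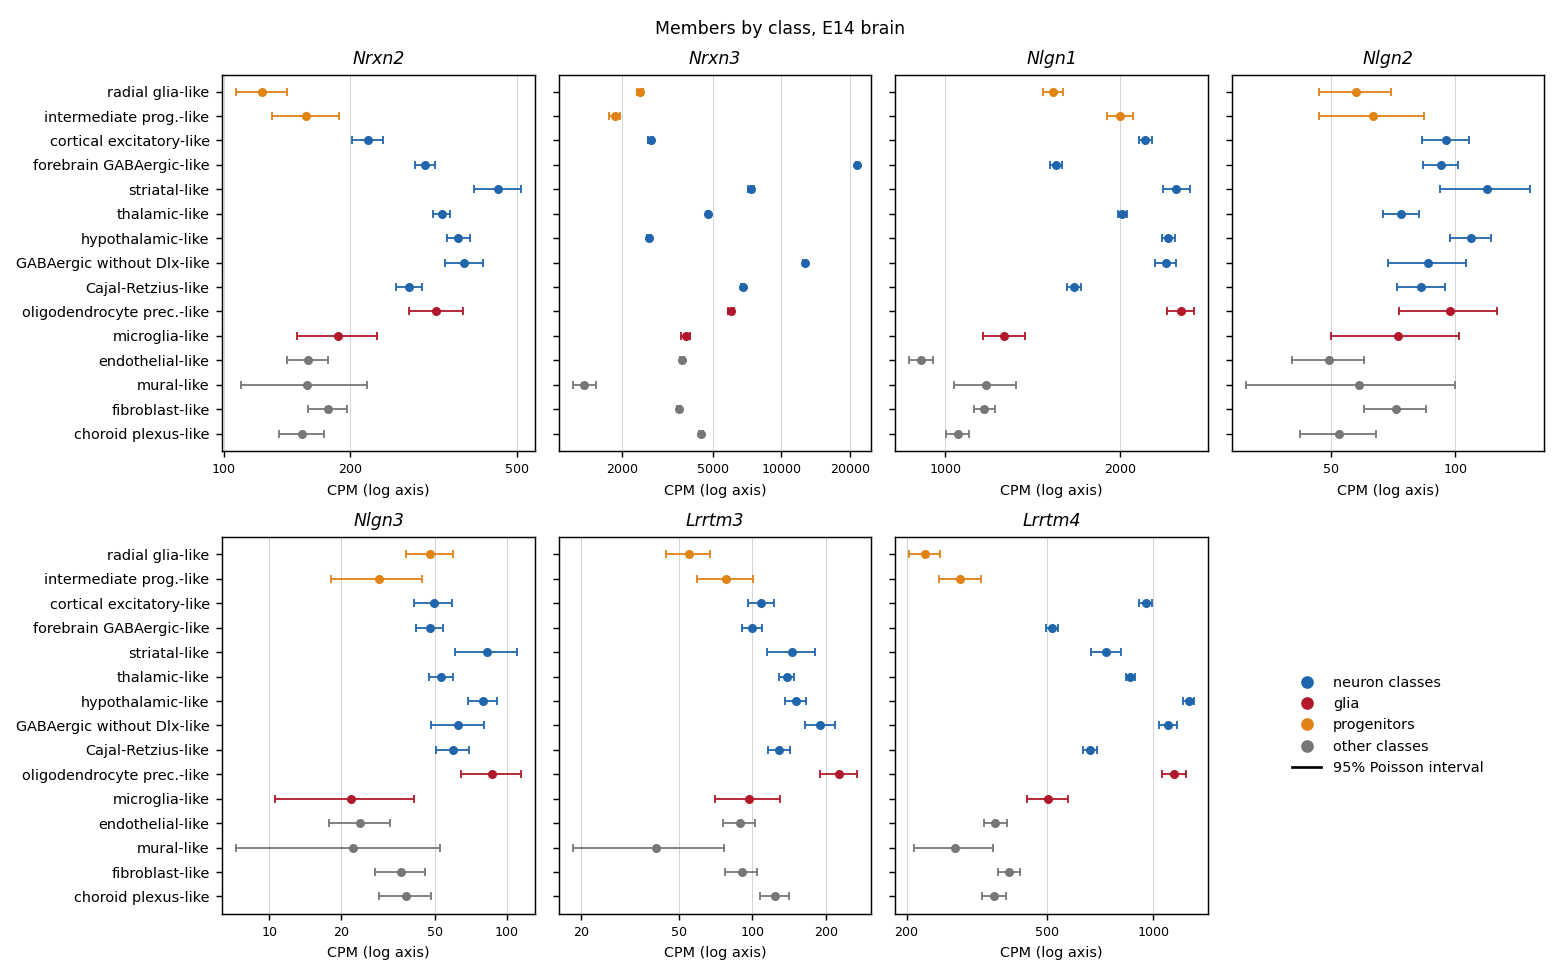
Level of each of the 7 members in the 15 E14 classes of at least 30 nuclei, in CPM on a log axis that differs between panels, with progenitors in orange, neurons in blue, glia in red and other classes in grey. Points are levels over summed UMIs with 95% Poisson intervals; Nrxn3 stands at 21387 in forebrain GABAergic-like nuclei and between 1371 and 12654 in all other classes.

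Against progenitors, all 7 members were higher in E14 neurons by summed UMIs. The neurons were 2281 nuclei of 7 classes and the progenitors 253 radial glia-like and intermediate progenitor-like nuclei, the dividing cells that give rise to neurons. Nrxn3 had a ratio of 3.996 (3.89 to 4.11), Lrrtm4 of 3.40 (3.13 to 3.69), Nrxn2 of 2.34 (2.09 to 2.62) and Lrrtm3 of 2.07 (1.76 to 2.45). The neuroligins came after them, with Nlgn2 at 1.503 (1.27 to 1.79), Nlgn3 at 1.36 (1.11 to 1.68) and Nlgn1 at 1.18 (1.14 to 1.22). Thus 4 of 7 members were at least 2-fold higher and 0 at least 2-fold lower, where 10.8% and 11.1% of 14587 genes were. The median log2 ratio of the members was 1.05, against −0.17 over all these genes. The interval of Lrrtm3 reached below 2, and with classes taken from clusters in place of marker UMIs Nlgn1 stood at 0.89, below 1.

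The neurexins were lower and Lrrtm4 higher in adult than in E14 neurons. Lrrtm4 had 4116 CPM in adult and 828.4 in E14 neurons, a ratio of 4.97 (4.88 to 5.06). Nrxn3 had 3985 and 8924, a ratio of 0.45 (0.44 to 0.45), and Nrxn2 109.1 and 312.2, a ratio of 0.35 (0.33 to 0.37). Nlgn2 lay at 0.55 (0.50 to 0.61) and Nlgn1 at 1.29 (1.27 to 1.31), while the intervals of Nlgn3 (0.99, 0.90 to 1.10) and Lrrtm3 (1.04, 0.97 to 1.11) held 1. Thus 1 of 7 members was at least 2-fold higher and 2 at least 2-fold lower, where 15.6% and 23.9% of 15462 genes were. The all-gene median log2 ratio was −0.21, and relative to it Nrxn3 was 0.51, just inside the 2-fold mark, and Nlgn3 was 1.145, on the other side of 1. Age, brain region, library, depth and the version of the counting software all differ between the tissues and cannot be told apart.

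**Figure D4:**
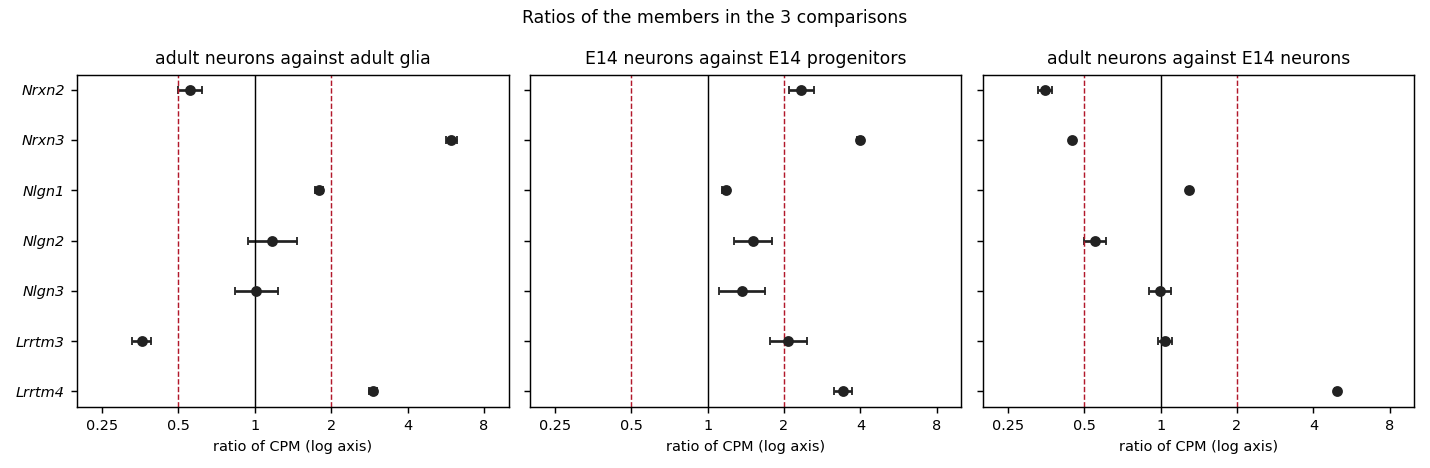
Ratio of CPM for each member in the 3 comparisons, on a log axis with 95% binomial intervals, a solid line at 1 and dashed lines at 2-fold. Nrxn3 and Lrrtm4 lie above 2 in both neuron comparisons within a tissue, and between the ages they lie on opposite sides of 1, at 0.45 and 4.97.

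Neuron and oligodendrocyte precursor classes present at both ages, 4 pairs in all, gave a different account for some members. Nrxn3 was higher in the adult among cortical excitatory-like nuclei, with 5318 against 2677 CPM (ratio 1.99, 27 and 228 nuclei). It was lower among thalamic-like nuclei (0.77) and from adult inhibitory-like to E14 forebrain GABAergic-like nuclei (0.24). Oligodendrocyte precursor-like nuclei also had less in the adult (0.42, or 0.65 without nuclei holding an excess of neuron markers). The pooled Nrxn3 ratio therefore joins classes that differ in direction. Forebrain GABAergic-like nuclei made up 583 of the 2281 E14 neurons and inhibitory-like nuclei 47 of the 594 adult ones.

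Lrrtm3 was level in the pooled neurons, yet higher in the adult in each of these pairs. The ratios were 4.62 (3.85 to 5.54) for cortical excitatory-like, 1.55 for thalamic-like, 2.70 for inhibitory-like and 2.15 for oligodendrocyte precursor-like nuclei. Without nuclei holding an excess of non-neuron markers, the thalamic-like levels overlapped, at 173.7 and 150.1 CPM. Of the 2 other shared classes, endothelial-like nuclei had less Lrrtm3 in the adult (0.44, 0.25 to 0.74), and the microglia-like interval held 1 (0.84 to 2.32). Lrrtm4 was higher in the adult in the same 4 pairs, from 1.51 in cortical excitatory-like to 12.3 (11.7 to 13.0) in inhibitory-like nuclei. It was lower in adult endothelial-like nuclei, at 0.30 (0.22 to 0.41), and higher in adult microglia-like nuclei by summed UMIs, at 6.63, where 4 nuclei held most of it. Nrxn2 was lower in the adult in the neuron pairs, at 0.38, 0.53 and 0.54, and higher in oligodendrocyte precursor-like nuclei, at 1.64 (1.30 to 2.06). The adult cortical class had under 30 nuclei, and 50% of adult thalamic-like nuclei also held an excess of non-neuron markers.

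Levels were compared between genes only per kilobase of gene. On that scale adult neurons held 5.20 CPM per kb of Lrrtm4, 3.35 of Nlgn2, 2.81 of Nlgn1, 2.47 of Nrxn3 and 2.11 of Nlgn3. Nrxn2 (0.870) and Lrrtm3 (0.827) were lowest. In E14 neurons Nlgn2 (6.08) and Nrxn3 (5.54) were the highest and Lrrtm4 (1.05) was second lowest. The place of the short Nlgn2 gene depends on the length used: per kb of exon it was among the lowest, at 8.48 CPM in adult neurons against 669.5 for Lrrtm4 and 316.1 for Nrxn3.

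Across 25 classes of both libraries, Lrrtm3 was most like Ctnna3, the gene that surrounds it, with a Pearson r of 0.963 for log2(CPM + 1) among 9402 genes. Ctnna3 stood at 1251 CPM in oligodendrocyte-like, 1837 in oligodendrocyte precursor-like and 31.86 in CA1 pyramidal-like nuclei. The classes share libraries and some RNA, so r is a description. Next after Ctnna3 came Tmeff2 at 0.78, a clear step down. In the annotation, 1 exon of Ctnna3 overlaps Lrrtm3 on the other strand, and whether reads of one gene were counted for the other was not tested.

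**Figure D5:**
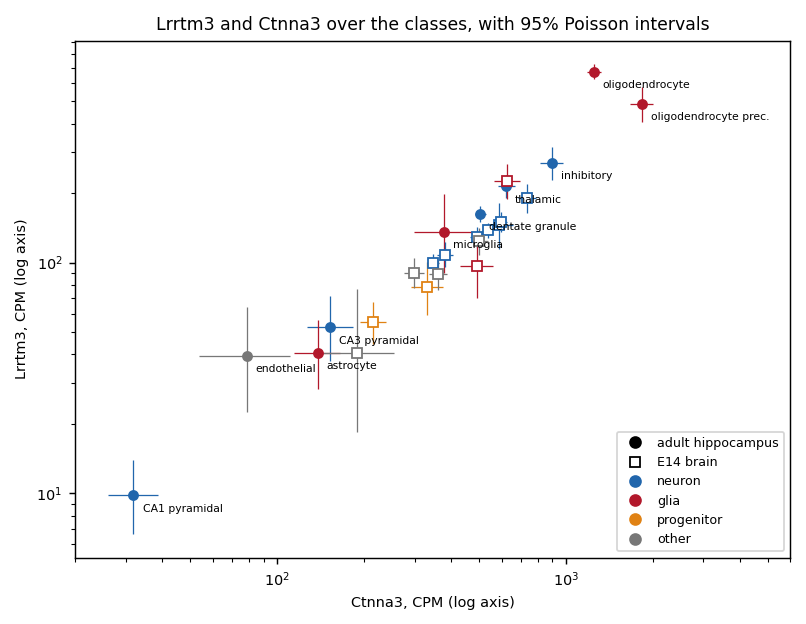
Lrrtm3 against Ctnna3 over 25 classes, both in CPM on log axes, with 95% Poisson intervals as lines. Filled circles are adult and open squares E14 classes, and the adult points run from CA1 pyramidal-like nuclei (9.78 and 31.86) to the 2 oligodendrocyte lineage classes.

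The genes most like the other members were Ptprn2 (r 0.908), Csrnp3 and Gm16083 for Nrxn3; Ccdc88a (0.851), Arxes2 and 4930445B16Rik for Nrxn2; and Gnal (0.859), Nrg2 and Stk32c for Lrrtm4. For the neuroligins they were Tmem63c (0.884), Grik5 and Apba2 for Nlgn1, Tcaf1 (0.923), Wnk3 and Tmem35a for Nlgn2, and Brsk2 (0.758), Kcnmb4 and Grid1 for Nlgn3. Apba2, also known as Mint2, and Grid1, a glutamate delta receptor, are on the partner lists as well.

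The wider pathway was read from 32 genes in 7 lists of known partners. In the adult, 12 of 30 with at least 50 UMIs were at least 2-fold higher in neurons than in glia and 2 lower (40% and 6.67%, beside 14.7% and 18.6% of all genes), with a median log2 ratio of 0.78 against −0.18 over all genes. The 3 splicing regulators of the Khdrbs family, which act on neurexin RNAs, included 2 of these, Khdrbs3 at 5.16 and Khdrbs2 at 3.88. The postsynaptic scaffolds gave 4 of 8, among them Shank2 at 4.06, Homer1 at 3.32 and Dlgap1 at 3.18. Other postsynaptic partners gave Clstn3, a calsyntenin, at 4.19 and Grid1 at 2.16. The neuroligin-binding proteins gave Mdga1 at 3.24, the presynaptic partners Lin7a at 4.12 and Lin7b at 2.81, and the secreted linkers C1ql3 at 2.43. The receptor phosphatase Ptprf was lower at 0.37.

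Some partners, picked after seeing the data, also differed between dentate and CA classes. Gpc4, a glypican of the kind that binds LRRTM4, stood at 140 CPM in dentate granule-like, 33.44 in CA1 and 3.93 in CA3 pyramidal-like nuclei. C1ql3, a secreted protein, stood at 823, 132.8 and 15.71. Khdrbs3 ran the other way, at 20.77, 985.1 and 984.3 CPM, low in the dentate class and high in both CA classes, as Nrxn3 was. Gpc4 and C1ql3 were lower in CA3 than in CA1, the reverse of Lrrtm4.

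At E14, 12 of 31 partners were at least 2-fold higher in neurons than in progenitors and 1 lower (38.7% and 3.23%, beside 10.8% and 11.1% of all genes), with a median log2 ratio of 0.89 against −0.17. Of the 5 secreted linkers 4 were higher: Nxph1, a neurexophilin, at 5.91, Cbln1, a cerebellin, at 3.20, Nxph3 at 2.42 (from 3 progenitor UMIs, with an interval from 0.79) and Cbln4 at 2.23. The scaffolds gave Shank1 at 2.88, Dlgap1 at 2.42 and Shank2 at 2.08, the presynaptic partners Apba1 at 3.09 and Lin7a at 2.42, and the rest were Clstn3 at 2.99, Ptprd at 2.31 and Grid1 at 2.17. Gpc4 was lower in neurons, at 63.45 against 286.7 CPM (0.22, 0.20 to 0.24). The glypican and Lrrtm4 thus had opposite orders between E14 neurons and progenitors.

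Between the ages, 7 of 32 partners were at least 2-fold higher in adult neurons and 9 lower (21.9% and 28.1%), near the 15.6% and 23.9% of all genes, with a median log2 ratio of 0.04 against −0.21. The secreted linkers diverged: C1ql3 was 51.1 times higher in the adult (3708 against 140 UMIs), and Cbln1 (4 against 552), Cbln4 (2 against 175) and Nxph1 (1177 against 15875) were lower. For Cbln4 the ratio was 0.022, with an interval from 0.00265 to 0.0808. The higher scaffolds included Dlgap1 at 6.89 and Homer1 at 2.65, and no scaffold was 2-fold lower. Lin7b (22.5), Khdrbs3 (3.14) and Clstn3 (2.13) were also higher. Khdrbs1 (0.45), Khdrbs2 (0.47), Cask (0.30), Ptprs (0.34) and Ptprf (0.12) were among those lower.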

How the data were processed

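Nuclei of 1 adult hippocampus and 1 E14 brain section were counted by the authors with Cell Ranger against mm10. The deposited files hold raw UMI counts per gene and nucleus, whose headers name Cell Ranger 6.1.2 (adult) and 7.0.1 (E14). The study's methods name a background-removal step for the embryo, but the E14 header is Cell Ranger's own, so its values were taken as counts before that step. Spatial positions were not used here.

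A minimum of 500 UMIs and a mitochondrial share below 5% left 1609 of 1661 and 9036 of 9037 nuclei. A nucleus joined the class whose 8 markers gave the largest Poisson excess, with at least 3 UMIs from 2 markers and a margin of 2 log10 units (13 adult and 16 E14 lists). Louvain clusters gave the same class to 92.3% and 68.8% of assigned nuclei. Over all nuclei, those without a class included, the shares were 65.4% and 24.1%. Doublets were scored with Scrublet: its automatic threshold marked 6 and 1 nuclei, so the 21 and 653 highest scores were marked, kept in the values and left out in an alternative. Members and lists were chosen with earlier results of these data known. Genes named were the members, partners at least 2-fold apart, markers, and the 3 genes most correlated with each member (at least 200 UMIs per library). Values of Gpc4, C1ql3 and Khdrbs3 by adult class, were picked after seeing the data. Some partners that enter the counts are not reported here by name. Promoters were read from a RefSeq table, which held 5 of the 7 members.

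Alternatives covered filters, margin, clusters, weighting, denominators and doublets. The scripts were tested on simulated data. Python 3.11.15, numpy 2.4.6, scipy 1.17.1, pandas 2.3.3, scanpy 1.11.5, igraph 0.11.9 and matplotlib 3.10.9 were used.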

Additional observations from a re-analysis of the deposited data

How the results depend on the processing

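Under 11 alternatives, the 21 ratios of the 3 comparisons gave 231 values, of which 132 stayed inside the interval first given, 99 left it and 0 of those at least 2-fold apart turned direction. With classes weighted equally, 1 member was at least 2-fold higher in adult neurons than in glia in place of 2, and 1 was at least 2-fold lower in adult than in E14 neurons in place of 2 (Nrxn3 at 0.56). In that setting Nrxn2 (0.495) took the place of Lrrtm3 (0.60) as the member 2-fold lower in adult neurons than in glia. The count lower in adult than in E14 neurons was also 1 with the median ratio of all genes set to 1. Mixed nuclei were neuron-like nuclei with an excess of non-neuron markers, or other nuclei with an excess of neuron markers. With mixed nuclei left out, an alternative chosen after seeing the data, 2 members were at least 2-fold lower in adult neurons than in glia in place of 1 (Nrxn2 at 0.47). Nlgn1 also passed 2-fold in the adult with nuclei weighted equally (2.27), and E14 Lrrtm3 was under it at a margin of 5 log10 units (1.92). Values past 1.5 times were, with Louvain clusters, the E14 ratios of Nrxn2 (4.58), Lrrtm3 (7.36) and Lrrtm4 (7.70), and with nuclei weighted equally the adult ratios of Nrxn3 (10.9) and Lrrtm4 (7.40) and the E14 ratio of Nrxn3 (6.84). With classes weighted equally they were the adult ratios of Lrrtm3 (0.60) and Lrrtm4 (1.47). Between single classes other values moved as far, and those named here are examples. With clusters, Lrrtm4 was 13.98 in dentate against CA3 and 0.28 in E14 forebrain GABAergic against cortical excitatory. With nuclei weighted equally, Nrxn3 in the latter pair was 14.55, and Lrrtm3 in oligodendrocyte-like against astrocyte-like nuclei 28.95. Nrxn3 in E14 fibroblast-like nuclei was then 2080 CPM. Lrrtm3 in dentate against CA3 was 6.97 at a margin of 5 log10 units. With mixed nuclei left out, Nrxn3 in oligodendrocyte-like against astrocyte-like nuclei turned direction, from 0.55 to 1.69. The cause was not tested. Thinned shares and Nlgn2 and Nlgn3 levels rest on few UMIs per nucleus. No paired analysis was possible because each tissue is 1 library.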

Other observations

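Members were often seen in the same nucleus. With each nucleus thinned to 1000 UMIs, 92.2% of 578 adult neuron-like nuclei had UMIs of at least 2 of the 7 members, against 32.8% of 455 glia-like nuclei and 8.06% of 62 nuclei of other classes. The mean number of members seen was 2.46, 1.25 and 0.387. Lrrtm4, Nrxn3 and Nlgn1 alone held 4116, 3985 and 2544 CPM in adult neurons. No shares for other genes of like level are given, so these shares describe abundance and not a trait of the members. At E14 the share was 72.5% of 2250 neuron-like and 42.2% of 237 progenitor-like nuclei, with 55.2% of 125 glia-like and 38.5% of 468 nuclei of other classes. It was 73.8% of the 4917 E14 nuclei without a class that reached this depth.

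Pairs of members followed each other differently in the 2 tissues. Over 10 adult classes Nrxn3 and Nlgn1 had a Pearson r of 0.837, and over 15 E14 classes 0.233. Lrrtm3 and Lrrtm4 had 0.646 and 0.854, and Nrxn3 and Lrrtm3 −0.153 and 0.601. The classes of a tissue share 1 library, and the difference between tissues was not tested.

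The adult nuclei without a class (468) held 5061 CPM of Lrrtm4 and 2606 of Nrxn3 at a median depth of 2235.5 UMIs. Their median nucleus was at 0 for Lrrtm4, with 55.56% at 0, and 47 nuclei held 53.45% of these Lrrtm4 UMIs. Of the nuclei without a class, 49.57% had under 1.5% of their UMIs from Malat1, a nuclear RNA. In 66.6% of the 311 that reached 1000 UMIs at least 2 members were seen after thinning.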
